A study of Drosophila melanogaster with 8 samples.

Results

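The regions described here were open, by peak call, in wild-type (WT) Drosophila melanogaster embryos at 1 to 1.5 h and in no other library of the series. Joining every set of peaks with 1 bp or more in common, over the 8 lists, gave 38545 merged regions. The members were the 1679 regions in which both WT libraries of 1 to 1.5 h had a peak and none of the other 6 libraries had one. They made up 4.36% of all merged regions. Of the 17137 regions that both of those WT libraries called, they were 9.8%. The members were thus chosen by the peak calls of all 8 libraries, so these numbers and the widths of their peaks are descriptions and were not tested.

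The series used ATAC-seq, in which the Tn5 transposase inserts sequencing adapters into accessible DNA of isolated nuclei, on whole embryos. WT and Mutant embryos were compared at 2 ages, 1 to 1.5 h and 2.5 to 3 h, with 2 libraries in each of the 4 groups. The study concerns IntS11, the subunit with which Integrator cuts RNA, and the titles of all 8 libraries, WT included, carry the words for mislocalized IntS11. That the mislocalization belongs to the Mutant embryos alone was therefore an inference. The labels give no allele, driver or number of embryos, and do not say whether replicates were separate collections. The lists held 15569 to 25201 peaks, and those of WT at 1 to 1.5 h were the longest, at 25201 and 23815. They hold positions only, with no read counts, so depth could not be assessed and the lack of a call does not show that a site was closed. In whole embryos, fewer nuclei with an open site and a weaker opening in each nucleus cannot be told apart.

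In the first hours of fly development the nuclei divide in a shared cytoplasm and most transcripts are maternal. Pioneer factors such as Zelda and GAGA factor open promoters and enhancers before and during the onset of zygotic transcription, and the pattern of open sites is then elaborated as cell fates are set. Integrator cuts nascent RNA near promoters and forms the ends of small nuclear RNAs. As a check of the labelled tissue, regions called in all 8 libraries were counted by gene list, where all early WT regions gave 6853 of 17137. At early zygotic genes they were 20 of 25, at gap and terminal genes 37 of 63 and at pair-rule genes 23 of 45. At genes of differentiated tissues they were 46 of 135 for neural, 22 of 59 for muscle, 11 of 29 for germline, 13 of 32 for chemoreceptor and 0 of 13 for follicle cell genes. They were 15 of 28 for the neuronal dpr and DIP genes, near the share at pair-rule genes, and 3 of 33 for cuticle genes of the Cpr family. Regions at genes of other tissues were thus called in all libraries too, with none at follicle cell genes and few at cuticle genes. The lists therefore did not set embryo genes clearly apart from those of other tissues.

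The 1679 members outnumbered the regions called in this way in any other single group. Both Mutant libraries of 1 to 1.5 h shared 178 regions that no other library called, which was 1.77% of the regions called in both. The corresponding numbers were 646 (4.2%) in WT at 2.5 to 3 h and 642 (4.41%) in Mutant embryos at 2.5 to 3 h. The order of the groups depended on how the lists were cut. When every list was reduced to its 15569 widest peaks, the numbers were 658 in WT and 440 in Mutant embryos at 1 to 1.5 h, and 723 in WT and 538 in Mutant embryos at 2.5 to 3 h. The early WT group then no longer held the most. That cut takes the narrowest peaks from the longer lists, so list length and peak width cannot be told apart in it. With peaks of at least 160 bp in every list, early WT held the most, at 1410. Early Mutant then had 36, late WT 863 and late Mutant embryos 823. At 200 bp or more the numbers were 1193, 25, 871 and 783 in the same order. The number of members also rested on having both replicates, and was 4026 without early WT replicate 1 and 4553 without replicate 2. Agreement between replicates bounded the set further. Another 2716 regions were called in WT replicate 1 of 1 to 1.5 h alone and 2152 in replicate 2 alone, so the members were 25.6% of the regions called in that group alone. That share was 7.06% in Mutant embryos at 1 to 1.5 h, 31.4% in WT at 2.5 to 3 h and 22.8% in Mutant embryos at 2.5 to 3 h.

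**Figure D1:**
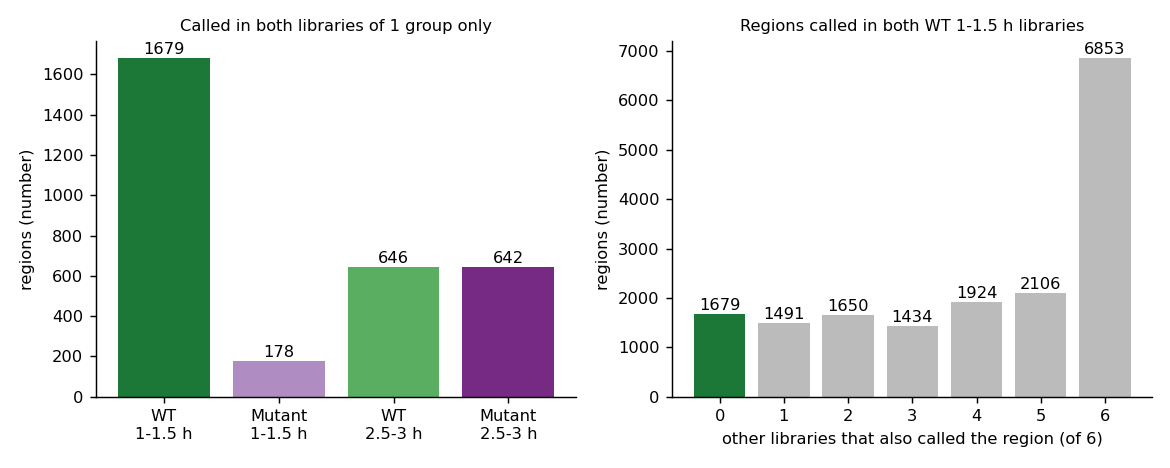
Left, number of merged regions (y axis) called in both libraries of a group and in none of the other 6, for each of the 4 groups, as bars. Right, the 17137 regions shared by the early WT replicates (y axis, number of regions) by how many of the other 6 libraries also called them (x axis). The members are the green bar at 0, with 1679 regions, and 6853 regions were called in every library.

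Among the 17137 regions of early WT embryos, 4641 had no peak in either Mutant library of 1 to 1.5 h, and the members were 36.2% of these. The other 2962 had a peak in at least 1 library of 2.5 to 3 h. Of these, 1590 were called at 2.5 to 3 h in both genotypes, 917 in WT alone and 455 in Mutant embryos alone. A peak in any single late library sufficed for this count, which was 63.8% of the 4641. Late calls were not particular to these regions. Of all 17137 early WT regions, 40.0% were called in all 6 other libraries, 12.3% in 5, 11.2% in 4 and 8.37% in 3. Each of these has at least 1 late call. The members stood next to 1491 regions that 1 other library also called, of which 497 had their single extra peak in Mutant replicate 1 of 1 to 1.5 h. The other 5 libraries supplied 166 to 246 each.

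The members were narrow. Their median width was 215 bp in WT replicate 1 and 205 bp in replicate 2, with a range of 122 to 947 bp and 120 to 947 bp. The other regions called in both of these libraries had medians of 381.5 bp and 362 bp. Regions called in another single group were narrow as well. Their median of the mean width was 146.75 bp in early Mutant, 245.75 bp in late WT and 249.75 bp in late Mutant embryos, beside 217.5 bp for the members. By mean width over both libraries, 30 members (1.79%) reached 500 bp, against 31.3% of the other regions. In 4 classes of nearly equal size by mean width, members were 23.9% of the narrowest class (121.5 to 240 bp), 11.1% of the second, 3.86% of the third and 0.327% of the widest. The widths of a member agreed only loosely between replicates. Replicate 1 was the wider in 892 members and replicate 2 in 769, and in 190 members (11.3%) the wider peak was at least 2 times the narrower. The shortest peak also differed between lists, from 100 to 156 bp. In 129 members (7.68%) both peaks were shorter than 156 bp, the shortest peak of a WT library of 2.5 to 3 h, against 1.92% of the other regions.

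**Figure D2:**
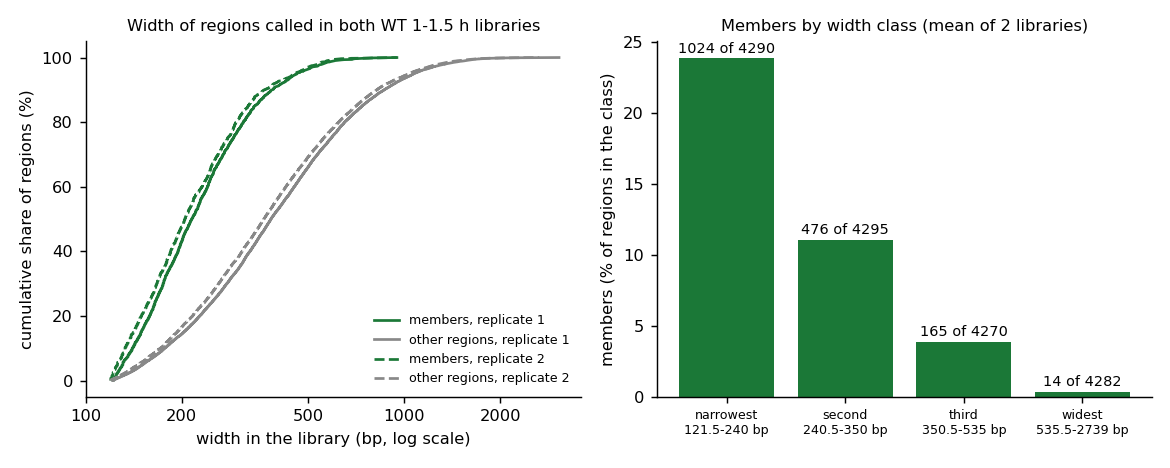
Left, cumulative share of regions (y axis, %) by width in the library (x axis, bp, log scale) for the 1679 members (green) and the other 15458 regions shared by the early WT replicates (grey), with replicate 1 as solid and replicate 2 as broken lines. Right, members as a share of the regions in each class of mean width (bars, %). The share falls from 23.9% in the narrowest class to 0.327% in the widest.

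Most members, like most merged regions, lay inside genes, away from gene ends. A gene end was taken as within 250 bp of either end of an annotated gene span, since the gene table gives no strand, so 5′ and 3′ ends were counted together. By this measure 346 members (20.6%, 95% Wilson interval 18.7 to 22.6) were at a gene end, 1071 (63.8%) were inside a gene only and 262 (15.6%, 13.9 to 17.4) were between genes. Of the other regions called in both early WT libraries, 38.3% were at a gene end, 50.9% inside a gene only and 10.8% between genes. Over all merged regions the shares were 25.4%, 61.3% and 13.3%, so the share inside genes was near that of all regions. In the regions called in another single group, it was 71.9% in early Mutant, 56.5% in late WT and 60.3% in late Mutant embryos. A low share at gene ends was also seen in the regions called in both libraries of another single group, 14.6% in early Mutant, 24.9% in late WT and 14.6% in late Mutant embryos. Read the other way, members were 5.52% of the early WT regions at gene ends, 12.0% of those inside genes and 13.6% of those between genes. These intervals cover counting error only, treat regions as independent and carry no spread between libraries.

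The share at gene ends was below that of the other early WT regions at each width. In the narrowest class 19.4% of members and 27.4% of the other regions were at a gene end, in the second 19.5% and 28.7%, and in the third 29.1% and 38.6%. The widest class held only 14 members, of which 6 were at gene ends, 42.9% against 54.9%. The share between genes, in contrast, was 17.4% against 15.2% in the narrowest class and 9.09% against 10.1% in the third, so its direction was not the same in all classes.

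Members were spread over the chromosome arms. There were 306 on 2L, 314 on 2R, 361 on 3L, 376 on 3R, 305 on X and 17 on chromosome 4. None lay on Y, where both early WT libraries shared 7 regions. The X held 18.2% of members (16.4 to 20.1), against 15.5% of the other early WT regions and 16.3% of all regions. This was not particular to the members. In the regions called in another single group, the X held 12.4% in early Mutant, 20.9% in late WT and 21.5% in late Mutant embryos. It held 18.5% of the early WT regions that had no early Mutant call but had a late one. With peaks under 200 bp removed from every list, the X held 16.2% of members and 16.5% of all regions, so the position relative to all regions turned. Members on chromosome 4 included a region inside pho (chromosome 4, 1178525 to 1179031, 507 and 207 bp), which encodes a DNA-binding Polycomb group protein, and the widest of that chromosome, between genes, 16781 bp from Cadps (262 and 498 bp). Another was inside CG11360 (244 and 386 bp). Most members stood alone. The median distance to the next member was 18551 bp, and 272 members (16.2%) had another within 5000 bp.

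The libraries that did not call the members often had a peak nearby. The distance to the nearest peak of any of the 6 had a median of 834 bp, with quartiles of 408 and 1807 bp. It was at most 500 bp for 535 members (31.9%) and at most 50 bp for 30. At the other end, 96 members (5.72%) had no peak of those libraries within 5000 bp, and the farthest lay 53640 bp away, on 2R. In 330 of the 535 members with a near peak, another region called in both early WT libraries also lay within 500 bp.

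Counted per library, a peak within 1000 bp of a member was present for 514 and 431 members in Mutant embryos at 1 to 1.5 h. It was present for 632 and 615 members in WT and for 590 and 570 members in Mutant embryos at 2.5 to 3 h. The 3 groups did not overlap, with WT at 2.5 to 3 h the highest and the early Mutant libraries the lowest. Mutant embryos at 2.5 to 3 h had 580 ± 14.1 such members (SD, n = 2) and WT embryos 623.5 ± 12.0, a difference of -43.5. No test is given, since the calls of these same libraries chose the members. Against 472.5 ± 58.7 (SD, n = 2) in early Mutant embryos the late Mutant count was higher by 107.5. The early Mutant lists were also among the shortest, at 18706 and 15569 peaks. The late WT lists held 19002 and 18440 peaks and the late Mutant lists 19995 and 19035. Late WT thus had the highest counts with shorter lists than late Mutant embryos. The part of list length in these counts was not tested. Other early WT regions that a library did not call had a peak of that library within 1000 bp at rates a few points away, 34.4% and 29.9% in early Mutant libraries against 30.6% and 25.7% of members. For WT at 2.5 to 3 h the shares were 36.1% and 35.6% against 37.6% and 36.6% of members, and for late Mutant libraries 39.5% and 36.6% against 35.1% and 33.9%. The direction depended on the distance in the early Mutant libraries and in late WT replicate 2. Within 200 bp the shares in early Mutant libraries were 2.68% and 1.91% of members against 1.87% and 1.41% of the other regions. In late WT replicate 2 they were 2.44% and 2.56%. In both late Mutant libraries the share of members was the lower at each distance counted, with 1.85% and 2.50% against 2.76% and 2.64% within 200 bp.

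**Figure D3:**
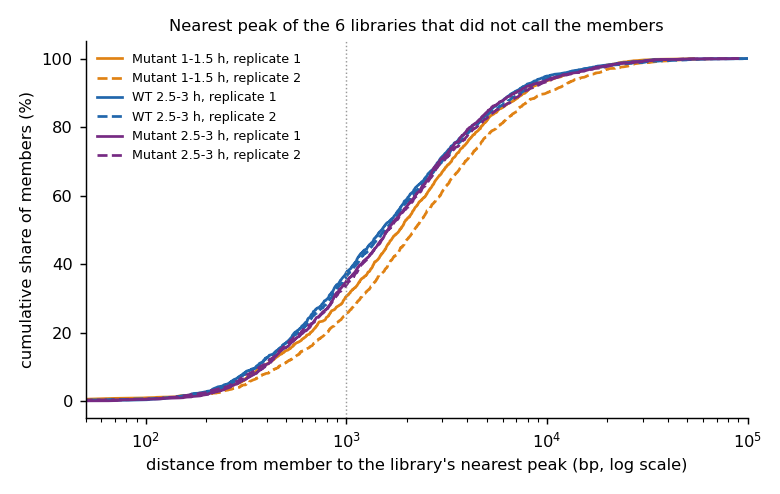
Cumulative share of the 1679 members (y axis, %) by the distance to the nearest peak of each of the 6 libraries that did not call them (x axis, bp, log scale), coloured by group, with replicate 1 as solid and replicate 2 as broken lines. The dotted line marks 1000 bp, where the early Mutant libraries reach 30.6% and 25.7% of members and the WT libraries of 2.5 to 3 h reach 37.6% and 36.6%.

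The limits of the rule show how close the cases on either side were. Just inside, a member within clos and Map60 (2R, 9591392 to 9592066, 447 and 563 bp) lay 1 bp from a peak of WT at 2.5 to 3 h. Members inside CG13005, at Tim8, which encodes a mitochondrial import chaperone, inside CG9706 and inside ppk24, which encodes a sodium channel subunit of the pickpocket family, lay 3, 6, 7 and 8 bp from a peak. Just outside, the widest region with a peak in 1 other library lay inside CG15385 (2L, 2210373 to 2211599). It was 1136 and 1058 bp wide in early WT and 433 bp in Mutant replicate 1 of 1 to 1.5 h. The next were inside CG13917, inside GckIII, which encodes a germinal centre kinase, between genes 3142 bp from CR42546, and inside Alg2, which encodes a mannosyltransferase of protein glycosylation. Their single extra peaks were 144 to 286 bp wide.

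The widest member lay inside vvl, which encodes a POU-domain transcription factor of trachea and nervous system (3L, 6790809 to 6792033, dm6). It measured 792 bp in early WT replicate 1 and 947 bp in replicate 2, a mean of 869.5 ± 110 bp (SD, n = 2). No other library called it, and the nearest peak of another library was 434 bp away. The second was at a gene end of Hsp67Ba, of the small heat shock gene cluster (3L, 9378493 to 9379308), with 736 and 570 bp. The fourth was at a gene end of png, the kinase gene that licenses translation of maternal mRNA at egg activation (X, 1356813 to 1357499), with 687 and 570 bp. For png, the nearest peak of another library was 1657 bp away. These 3 loci had wide peaks in both replicates.

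Other wide members differed more between replicates. The third, inside lncRNA:CR32773 and CG3556 on X, was 947 bp wide in replicate 1 and 348 bp in replicate 2. Those inside CG13003 (300 and 872 bp), CG13676 (341 and 806 bp) and ATP7, a copper transporter gene (387 and 772 bp), were wider in replicate 2. The region inside Tm2, a muscle tropomyosin gene, was 720 and 346 bp wide, and that at CG1213 772 and 318 bp. Close agreement was seen at CG33003 (588 and 573 bp), inside Sulf1, which encodes a heparan sulfate endosulfatase (558 and 547 bp), and at CG43066 (539 and 523 bp). The rest of the 20 widest were at gene ends of CG12910 and CAP, whose product binds vinculin (536 and 598 bp), of Ddc, the dopa decarboxylase gene (402 and 679 bp), of Jon25Biii, a digestive protease gene (566 and 483 bp), and of CG10681 (537 and 491 bp). They were also inside raskol, a Ras GTPase-activating protein gene (688 and 452 bp), Pxd, a peroxidase gene (470 and 610 bp), Eip78C (612 and 443 bp) and dar1, a dendrite transcription factor gene (544 and 500 bp).

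**Figure D4:**
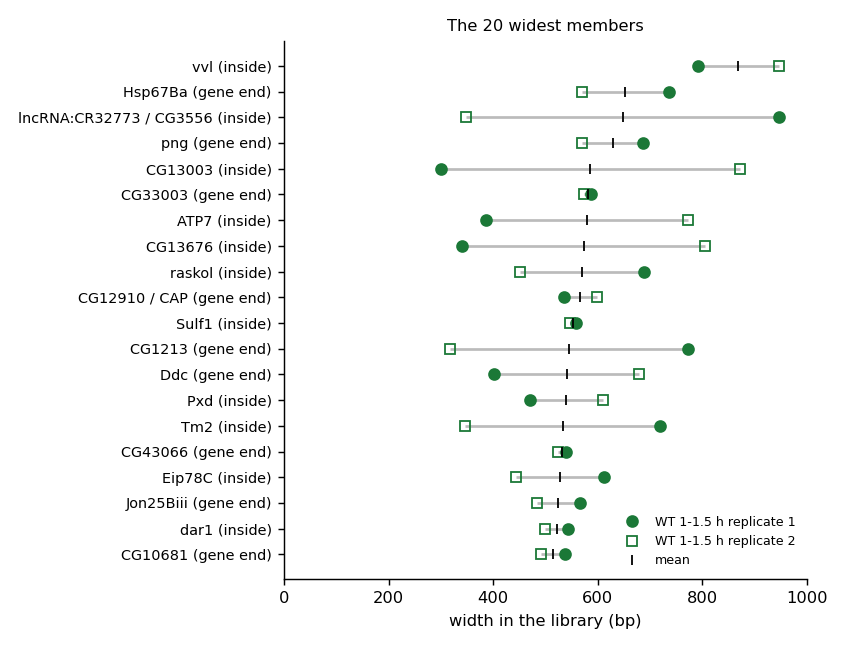
Width (x axis, bp) of the 20 widest members in WT replicate 1 (filled circles) and replicate 2 (open squares) of 1 to 1.5 h, with the mean as a tick and a grey line joining both, named by the gene at whose end or inside which they lie. The vvl region is the widest by mean, at 869.5 bp, and no other library had a peak in any of them.

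A gene-end peak particular to early WT embryos was not always the only one of its gene. Of 17807 genes in the table, 403 (2.26%) had a member at an end, 313 of them protein coding. For 252 of the 403 (62.5%) none of the other 6 libraries had a peak at either end of the gene. The rule kept peaks of those libraries out of the member itself, so part of this share follows from the selection. The same share was not computed for genes with other early WT regions at an end. These 252 included 197 protein-coding genes and 34 lncRNA genes. The widest were Hsp67Ba, png, CAP, CG1213 and Ddc, followed by CG43066, CG10681, the hexosaminidase gene Hexo2 (450 and 570 bp), and the fatty acid elongase gene Elovl7 with the neighbouring lncRNA:CR46143 (459 and 546 bp). Next were the cuticle gene TwdlV (686 and 285 bp), the ciliary transport gene Oseg6 (391 and 550 bp) and the acetyl-CoA acetyltransferase gene Acat1 (550 and 387 bp). The sterol carrier gene Npc2a (513 and 384 bp) and Arpc5, a subunit of the actin-nucleating Arp2/3 complex (494 and 317 bp), had members of the same kind.

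Longer genes more often had a member. Counting ends and interiors together, 1410 genes (7.92%) had at least 1 member. The share was 4.16% of genes under 5 kb, 17.9% of genes of 5 to 20 kb, 31.7% of 20 to 50 kb and 40.3% of genes of 50 kb and over. By number, genes under 5 kb were the most, 591 against 131 of 50 kb and over. A longer gene can also hold more regions, and members were not counted as a share of early WT regions by gene length. Only 157 genes held 2 or more members inside, and 12 held 4 or more. Of those 12, rdx, which encodes the Cul3 ligase adaptor that targets the Hedgehog effector Ci, had 7 members of 22 early WT regions in 65.0 kb (3R, 13967061 to 14032057). They were 133 to 306 bp wide in either library, and 3 of them lay side by side from 14024627 to 14025576. A further 12 regions inside rdx were called in all 8 libraries. The lncRNA gene CR32773 also had 7 members, of 30 regions, but in 224 kb.

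The other genes with 4 or 5 members included 5 of transcription factors. Lim3, which encodes a LIM-homeodomain factor of motor neurons, had 4 members of 8 early WT regions in 29.2 kb, the widest 570 and 327 bp (2L, 19090450 to 19091217). The tracheal membrane protein gene uif had 4 of 9, the F-BAR protein gene Cip4 4 of 11 and the PDZ protein gene bbg 4 of 11. The zinc-finger gene jing had 5 of 39, pnt, an ETS factor gene of EGF receptor signalling, 4 of 16, and hth, the gene of a homeodomain cofactor of Hox proteins, 4 of 36. The translational repressor gene pum had 4 of 22, Eip75B 4 of 30 and lncRNA:CR44357 5 of 39. These genes were named for their counts, so the counts are descriptions. Overlapping genes on either strand share a region here. Among genes with 3 members, the muscle gene Obsc had 3 of 4 regions and Vinc, the vinculin gene, 3 of 5 in 8.22 kb.

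The lists of gene groups were read as the share of early WT regions, at or in their genes, that were members, beside 9.8% for all early WT regions. Genes of nuclear receptors and the ecdysone response had the most members. Ecdysone is the steroid that times fly moults, and its receptor EcR switches on the early genes Eip75B, Eip74EF and br. In this list, 15 of 27 genes had a member, 55.6%, whereas all genes with the same mix of lengths gave 26.4%. The list is rich in regions, however, and 25 of its 207 early WT regions were members, 12.1% (8.32 to 17.2), near the 9.8% of all regions. With equal list lengths the share was 5.80%, against 5.87% of all early WT regions. Without early WT replicate 1 it was 22.1%, against 18.3% of all early WT regions, and without replicate 2 it was 17.6%, against 19.5%. The widest were in Eip78C, a nuclear receptor gene induced by ecdysone, with 3 members of 8 regions and none of its regions called in all 8 libraries. Its 3 members spanned 21259425 to 21264574 on 3L and were 298 and 139 bp, 191 and 179 bp, and 612 and 443 bp wide. Eip75B had 4 members, the widest 363 and 398 bp. E23, an ecdysone-induced transporter gene, had 2 of 4, of 373 and 360 bp and of 161 and 286 bp, both more than 5000 bp from any other library's peak. Hnf4, a receptor gene of lipid metabolism, had 1 of 5 (337 and 360 bp), and Hr4 3 of 18. EcR itself had 1 of 27 (229 and 214 bp), while 14 of its regions were called in all 8 libraries.

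Body plan genes differed among themselves, with Hox genes low and gap, terminal and dorsoventral genes near the 9.8% of all early WT regions. By genes with a member, against all genes of the same length mix, the shares were 18.2% and 23.2% for Hox, 18.2% and 11.2% for pair-rule, 22.2% and 20.4% for segment polarity, 16.7% and 13.3% for gap and terminal, and 28.6% and 17.4% for dorsoventral genes. Of 99 early WT regions at or in 11 Hox genes, which set segment identity, 2 were members, 2.02% (0.556 to 7.07). They lay inside Antp (221 and 288 bp) and Scr (216 and 278 bp), and the regions of the Hox list had a median width of 316.5 bp. The share was 5.19% with peaks of at least 200 bp, against 9.66% of all early WT regions, and 3.03% with equal list lengths, against 5.87%. Without early WT replicate 1 or 2 it was 7.89% or 6.78%, against 18.3% or 19.5% of all early WT regions. Pair-rule genes had 2 of 45, in drm (199 and 144 bp) and Ten-m (133 and 205 bp), and none at eve, ftz or run. Segment polarity genes had 7 of 94, 7.45%, with 3 in the Wnt receptor gene fz2 (the widest 301 and 327 bp), 2 in inv, a paralog of engrailed (the widest 253 and 415 bp), and 1 each in Wnt4 (199 and 130 bp) and hh, the Hedgehog ligand gene (176 and 129 bp). Gap and terminal genes had 6 of 63, 9.52%, in oc (316 and 294 bp), cnc (364 and 176 bp) and nub (249 and 202 bp). Dorsoventral genes had 11 of 119, 9.24%, led by the FGF gene ths (274 and 308 bp), ush (243 and 265 bp), the BMP inhibitor gene sog (232 and 272 bp) and vnd (220 and 246 bp). All of these patterning members but 1 dorsoventral one lay away from gene ends.

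**Figure D5:**
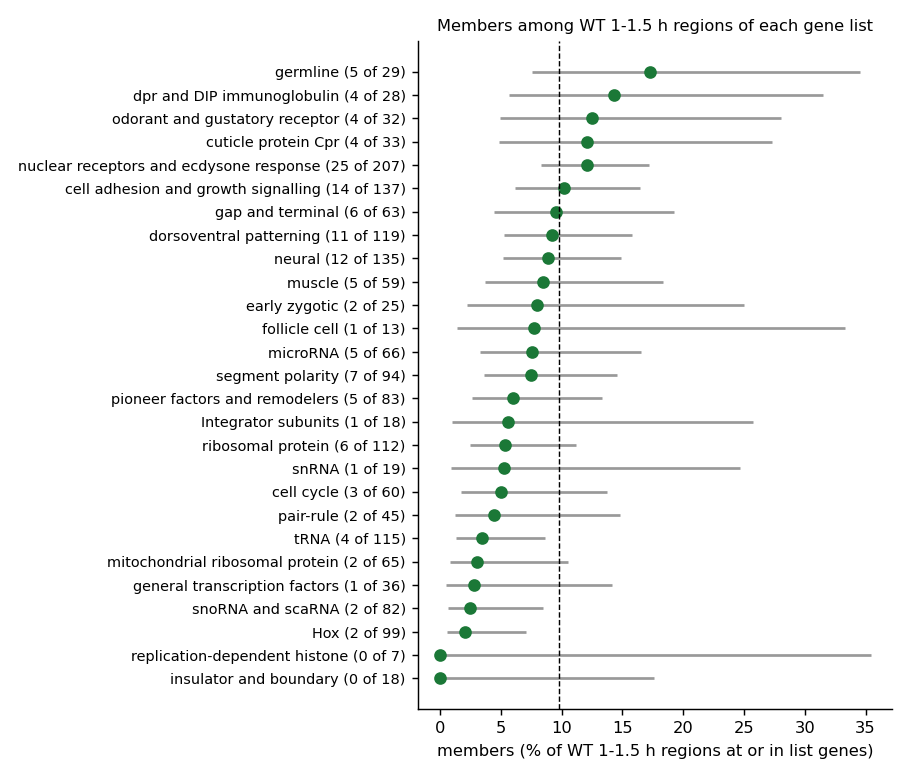
Members as a share (x axis, %) of the regions shared by the early WT replicates at or in the genes of each list, with 95% Wilson intervals (grey lines, counting error only), and the numbers of members and regions beside each name. The broken line is the 9.8% of all early WT regions, and the Hox list lies at 2.02% and the nuclear receptor and ecdysone list at 12.1%.

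Early zygotic genes, active in the first wave of transcription, had 2 members among 25 regions. They were at gene ends of kuk, a nuclear lamina gene (125 and 251 bp), and of the Notch target E(spl)m3-HLH (177 and 176 bp). Pioneer factors and remodelers had 5 of 83, 6.02%, with 2 in osa, a Brahma complex gene (the widest 253 and 248 bp), and 1 each in the remodeler genes Ino80 (210 and 185 bp), Mi-2 (199 and 121 bp) and Etl1 (151 and 146 bp). No member lay at zld or Trl, the genes of Zelda and GAGA factor. Insulator genes had 0 of 18, with an upper Wilson limit of 17.6%, and histone genes 0 of 7, with a limit of 35.4%. General transcription factors had 1 of 36, in Taf4 (131 and 169 bp), and cell cycle genes 3 of 60, in trbl (330 and 446 bp) and CycE (the widest 198 and 180 bp). Among the 14 Integrator subunit genes matched in the gene table, only IntS14 had a member, at a gene end, of 123 and 124 bp. It was the only early WT region of that gene. IntS11 had none.

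Signalling and adhesion genes had 14 of 137, 10.2%, with at most 1 per gene except Stat92E, the JAK/STAT transcription factor gene, which had 2 of 5 (the widest 411 and 359 bp). The ligand genes of the same pathway, upd3 (276 and 195 bp) and upd2 (238 and 208 bp), and its receptor gene dome (131 and 212 bp) also had a member each. The phosphatase gene puc, a feedback inhibitor of JNK (240 and 279 bp), and the cadherin gene CadN (215 and 274 bp) were others. In this list 13 of 26 genes had a member, 50.0% against 21.4% of all genes with that mix of lengths, while the share of regions was close to 9.8%.

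Genes of differentiated tissues, listed as markers of other cell types, had shares from 7.69% for follicle cell genes to 17.2% for germline genes, on small numbers of regions. By genes with a member, against all genes of the same length mix, several lists were lower. The shares were 18.5% and 32.1% for neural, 12.5% and 26.4% for dpr and DIP, and 1.61% and 4.73% for chemoreceptor genes. They were 5.26% and 6.33% for follicle cell, 5.71% and 5.54% for Cpr, 23.8% and 16.9% for muscle, and 26.7% and 14.8% for germline genes. Neural genes had 12 of 135, 8.89%, the widest in fru (303 and 268 bp), Dscam2 (253 and 254 bp), the adenylate cyclase gene rut (352 and 146 bp) and Dscam1 (136 and 359 bp). Muscle genes had 5 of 59, in Tm2, the myosin gene Mhc (439 and 141 bp), TpnC73F (227 and 267 bp), Msp300 (196 and 257 bp) and Act87E (155 and 154 bp). Follicle cell genes had 1 of 13, at Vml (193 and 138 bp). Germline genes had 5 of 29, 17.2% (7.60 to 34.5), in ovo (the widest 178 and 584 bp), the differentiation gene bam (347 and 332 bp), gcl (167 and 194 bp) and the Argonaute gene AGO3 (130 and 122 bp). The member in bam lay 3184 bp from any other library's peak and was the only early WT region of that gene. The dpr and DIP family of neuronal surface proteins had 4 of 28, with dpr9 (267 and 178 bp), dpr2 (207 and 203 bp) and DIP-gamma (130 and 164 bp) each having its only early WT region as a member. DIP-alpha also had a member (243 and 237 bp). Odorant, gustatory and ionotropic receptor genes had 4 of 32, with 2 in Ir21a (the widest 332 and 205 bp) and 1 each at Ir68b (290 and 376 bp) and Gr89a (164 and 165 bp). Cuticle genes of the Cpr family had 4 of 33, 12.1% (4.82 to 27.3), all at gene ends, where members were 5.52% of early WT regions. They were in Cpr64Ab (241 and 364 bp), Cpr50Cb (245 and 230 bp), Cpr66D (171 and 193 bp) and Cpr78Cb (170 and 180 bp).

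For lists of short genes, the 5.52% of early WT regions at gene ends is a second comparison beside the 9.8% of all early WT regions. It is a partial one, since the list shares also count regions inside genes, where members were 12.0%. Cytoplasmic ribosomal protein genes had 6 of 112, 5.36%, with RpL29 (427 and 437 bp), 2 at RpL32 (the widest 273 and 280 bp), RpL23 (237 and 233 bp), RpLP0 (169 and 187 bp) and RpL7A (154 and 179 bp). The RpL7A region is shared with the gene of snoRNA:Or-CD10. Mitochondrial ribosomal protein genes had 2 of 65, at mRpS29 (291 and 185 bp) and in mRpS31 (226 and 188 bp). The tRNA genes had 4 of 115, 3.48%, at tRNA:Tyr-GTA-1-9 (221 and 321 bp), tRNA:Asp-GTC-1-6 (194 and 128 bp), tRNA:Gly-TCC-2-2 (166 and 132 bp) and a region that tRNA:Phe-GAA-1-6 and tRNA:Phe-GAA-1-7 share (122 and 124 bp). The snoRNA and scaRNA genes had 2 of 82, the other at scaRNA:MeU5-G38 (284 and 293 bp), and the spliceosomal snRNA genes 1 of 19, at snRNA:U12 (141 and 144 bp). Near-identical copies of tRNA and snRNA genes can share reads, so calls at them are uncertain. The microRNA genes had 5 of 66, 7.58%, at mir-3641 (568 and 414 bp), mir-4963 (473 and 259 bp), mir-9378 (373 and 157 bp), mir-314 (250 and 250 bp) and mir-966 (153 and 180 bp). For the last 4 of these genes the member was the only region called in both early WT libraries.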

How the data were processed

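Each deposited file is the peak list of 1 library with 3 columns, chromosome, start and end in bp, so peaks were called per library. Per the submitters' processing notes the build was dm6, and the tools named were MACS2 2.2.7.1, deepTools 3.5.1, SAMtools 1.18, Trimmomatic 0.39 and Bowtie2 2.2.5. For their settings, any shift for the transposase cut and duplicate removal, nothing was stated (not given in the sources used here). Groups came from the sample titles.

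Peaks were merged at 1 bp overlap and annotated with the RefSeq gene table of the Release 6 assembly (17807 genes, 13946 protein coding), in Python 3.11.15 with pandas 2.3.3 and scipy 1.17.1. The gene table gives no strand or exons, so exonic and intronic positions were not analysed here, and no sequence was used. Coordinates are 1-based. The width of a region in a library is the summed width of its peaks there. The merging and distance steps were tested on simulated lists. The members, the 27 gene lists and the rule for named items were chosen with earlier results of these data known. The rule named the 20 widest members, genes with the most members (all 12 tied at 4 or more), up to 4 genes per list by width, the 3 widest members of chromosome 4, the 5 members nearest a peak of another library, and the 5 widest of the 1491 regions that 1 other library also called. Items beyond it (pho, other list genes, Obsc, Vinc and the gene-end genes) were chosen after their values were seen. Of the list symbols, 22 were not matched. The comparisons per library were planned as exact two-sided permutation tests. They are given as counts, since 2 against 2 libraries allow no p under 0.333 and the calls of the same libraries chose the members. The spread between these libraries may be technical.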

Additional observations from a re-analysis of the deposited data

How the results depend on the processing

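Depth was unknown, and equal list lengths cannot be taken to correct for it. The number of members fell from 1679 to 658 with equal list lengths and stayed within 1.5 times under other merging, a 200 bp margin and minimum widths of 160 and 200 bp. Leaving out 1 library gave 1854 to 4553, with 4026 without early WT replicate 1 and 4553 without replicate 2. The share at gene ends was 23.1% with equal list lengths, 30.8% with a window of 500 bp, 11.7% with 100 bp and 14.5% to 20.7% without 1 library. The median width was 255.5 bp with peaks of at least 160 bp, 300.5 bp with at least 200 bp, 314.75 bp with equal lists, and 181 to 225 bp without 1 library. Members between genes made up 13.8% at 160 bp, 12.5% at 200 bp and 14.2% to 16.0% without 1 library. The X held 16.2% at 200 bp and 17.0% to 18.5% without 1 library. Members with another library's peak within 500 bp were 28.9% with merging across 100 bp, 25.4% with the margin, 29.4% at 160 bp, 26.0% at 200 bp, 27.2% with equal lists, and 29.3% to 34.3% without 1 library, and 56.8% within 1000 bp or 8.64% within 200 bp.

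The differences in members with a peak nearby kept their direction at 500 and 2000 bp, with peaks of at least 200 bp and without 1 library. They ran from -53.5 to -16.5 for late Mutant minus late WT and from 51 to 199.5 for late Mutant minus early Mutant. Equal list lengths were not run for them. Without 1 library the differences were -53.5 to -33.5 and 66 to 149. Pairing libraries by replicate number cannot change the differences of -43.5 and 107.5, since the means stay the same, so it is no further check. In width, same-numbered libraries did not deviate together over the 6853 regions called in all 8 libraries. The correlations were -0.00888 for the late groups and 0.00993 for the Mutant groups. These regions include no member, and whether same-numbered libraries shared a collection or batch was not tested. The Hox share, recomputed after the data were seen, was at most 7.89%, and the nuclear receptor share 5.80% to 22.1%. The sequence description planned for the members was not run.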
